A study of Rattus norvegicus with 47 samples.

Results

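Cerebral cortex of the contralateral side, the hemisphere opposite to the side of injury, was sampled from rats 4 h after brain injury, and 8 of the 47 arrays of the series come from it. They were split by the extraction number in the sample titles into an earlier block (numbers 9 to 12, n = 4) and a later block (numbers 13 to 16, n = 4). All probe sets other than the controls were members. The split used labels only and no measured value. Both blocks are total RNA extracted with Trizol. Both carry the same hours after injury and the same treatment label, the word "wait", which is not explained. The labels give no strain, age or kind of injury, do not name injured or sham animals, and do not say what separates the blocks. What stands behind the later numbers therefore cannot be told apart from any other difference between the blocks. Whether each extraction is an animal of its own is not stated. The p-values therefore reflect the spread between extractions, part or all of which may be technical. For comparison, ipsilateral cortex at 4 h has numbers 1, 3 and 4 against 5 to 8 (n = 3 and 4), and contralateral cortex at 24 h has 41 to 44 against 45 to 48 (n = 4 and 4). These arrays are other extractions, under the same treatment label.

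Brain injury sets off early transcription in neurons and glia. Immediate early genes such as Egr1, Fos and the Nr4a receptors encode transcription factors whose messengers are induced quickly and briefly by neuronal activity, calcium entry and growth factors, without new protein synthesis. Metallothioneins are small metal-binding proteins that astrocytes and other cells make in response to zinc, oxidative stress, cytokines and glucocorticoid hormones. Through seizures and the systemic stress response, an injury can also affect tissue at a distance. The opposite hemisphere is often sampled beside the injured one for comparison.

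The measured quantity was the deposited signal of each probe set, an intensity on a linear scale, given here as log2 signal. Values under a floor of 185.8 (log2 7.54) were raised to it. Of 8799 probe sets, 6680 lay above the floor on at least 4 of the 8 arrays, were no control and were tested. They cover 3887 genes. Median signals of the 8 arrays lay between 615 and 806. The number of arrays limits the precision. Of the cortical markers checked, Snap25, a synaptic vesicle fusion protein, Camk2a, Gad1 and the myelin gene Mbp were above the floor on 8 of 8 arrays. The 1 probe set of Slc17a7, the vesicular glutamate transporter of cortical excitatory neurons, was above it on 0 of 8. Gfap was named by no probe set with a single gene. Ttr, which the choroid plexus makes, was above the floor on 8 of 8 arrays and uneven, with signals from 1190 to 49700.

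Of 6 measures of array quality, 0 passed between the blocks (exact two-sided permutation tests, p from 0.514 to 0.914, all 0.914 after adjustment, where 4 against 4 cannot go below 0.0286, so that a single measure could not pass after adjustment). Median log2 signal was 9.44 ± 0.13 (SD, n = 4) in the earlier and 9.50 ± 0.17 in the later block. The arrays did not sort by block. Arrays 12, 13 and 14 stood apart on the first principal component, with scores of 21.8, 20.4 and 29.3 against −23.8 to −6.86 for the other 5, and also had the highest median signals (771, 781 and 806). Pearson's r between arrays across probe sets, which are not independent replicates, was 0.946 to 0.966 within the earlier block, 0.937 to 0.97 within the later one and 0.939 to 0.976 between them. The best pair, arrays 10 and 15, came from different blocks.

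**Figure D1:**
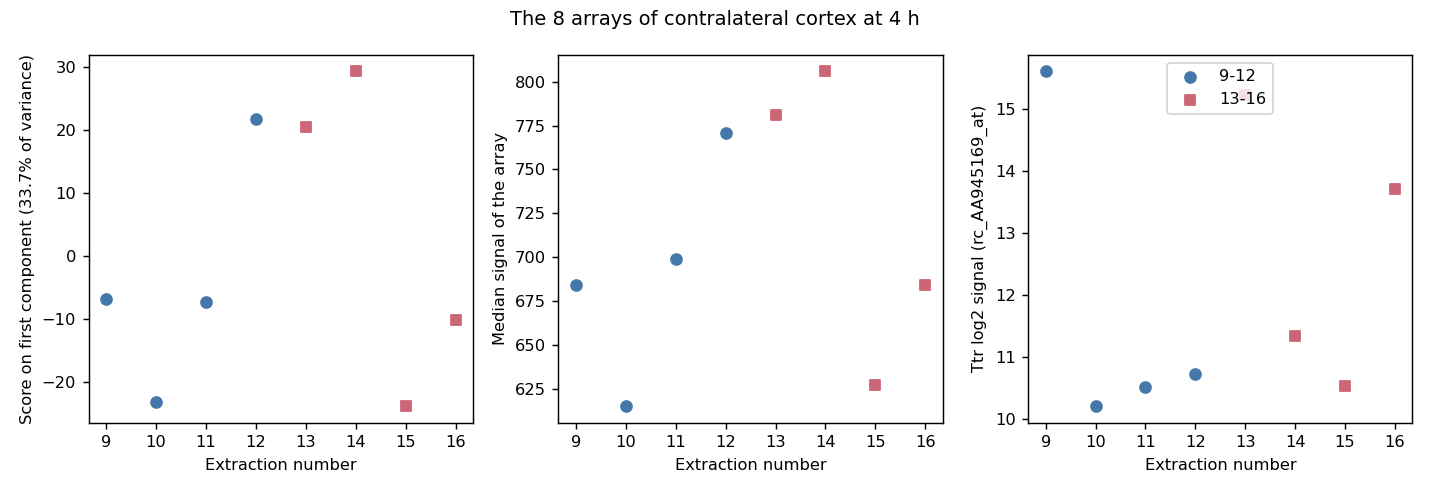
The 8 arrays of contralateral cortex at 4 h by extraction number (horizontal axis), with the score on the first principal component, the median signal (linear scale) and the log2 signal of Ttr; circles are numbers 9 to 12 and squares 13 to 16. Arrays 12, 13 and 14 lie highest in the first and second panels, and arrays 9 and 13 highest for Ttr, so neither pattern follows the blocks.

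The blocks were compared to ask which transcripts differed between later and earlier numbers. The transcription factor genes Egr1 and Nr4a3 fell in the later block, by 0.75 and 1.04 on the log2 scale. Also lower were Cspg5, a proteoglycan of brain tissue, the cyclin gene Ccnd2 and the peptidase gene Cpq. Mfge8, a secreted protein that tags dying cells for phagocytes, rose by 0.95. So did a pair of probe sets without a single gene name, 1 of them annotated with metallothionein genes, by 1.26 and 1.38. In all 9 of 6680 probe sets passed (limma, Benjamini-Hochberg adjusted p under 0.05; 0.135% of those tested), 3 higher (0.0449%) and 6 lower (0.0898%). In bulk tissue, fewer cells of a type and less RNA per cell cannot be told apart.

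Differences of this size were few. An unadjusted p under 0.05 was found for 467 probe sets (6.99%), of which 265 were higher (3.97%) and 202 lower (3.02%). The 4 arrays of one block all lay above the 4 of the other for 132 probe sets (1.98%), 67 higher (1%) and 65 lower (0.973%). A random split of 4 against 4 separates fully with a probability of up to 0.0286, so a lack of overlap alone sets no probe set apart. The median difference over all probe sets was 0.02. Only 42 probe sets differed by more than 2-fold, and 37 of these lay in the dimmer part of the probe sets, below their median level, where the median size of a difference was 0.22 against 0.10 in the brighter part. The count of 9 rests on the spread within number blocks of the whole series. With the 8 arrays alone 2 passed, the 2 probe sets without a single gene name. With number blocks elsewhere merged, which puts any difference between those blocks into the spread, 0 passed in limma (smallest adjusted p 0.0591, 446 at an unadjusted p under 0.05). Array weights gave 4, leaving out array 9 gave 3, and leaving out array 11 or array 13 gave 2. Without arrays 9, 13 and 16, which have the highest Ttr signal, 0 passed in limma (smallest adjusted p 0.0843, 420 at an unadjusted p under 0.05), and without arrays 12, 13 and 14 the count was 12, of which 4 were among the 9.

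**Figure D2:**
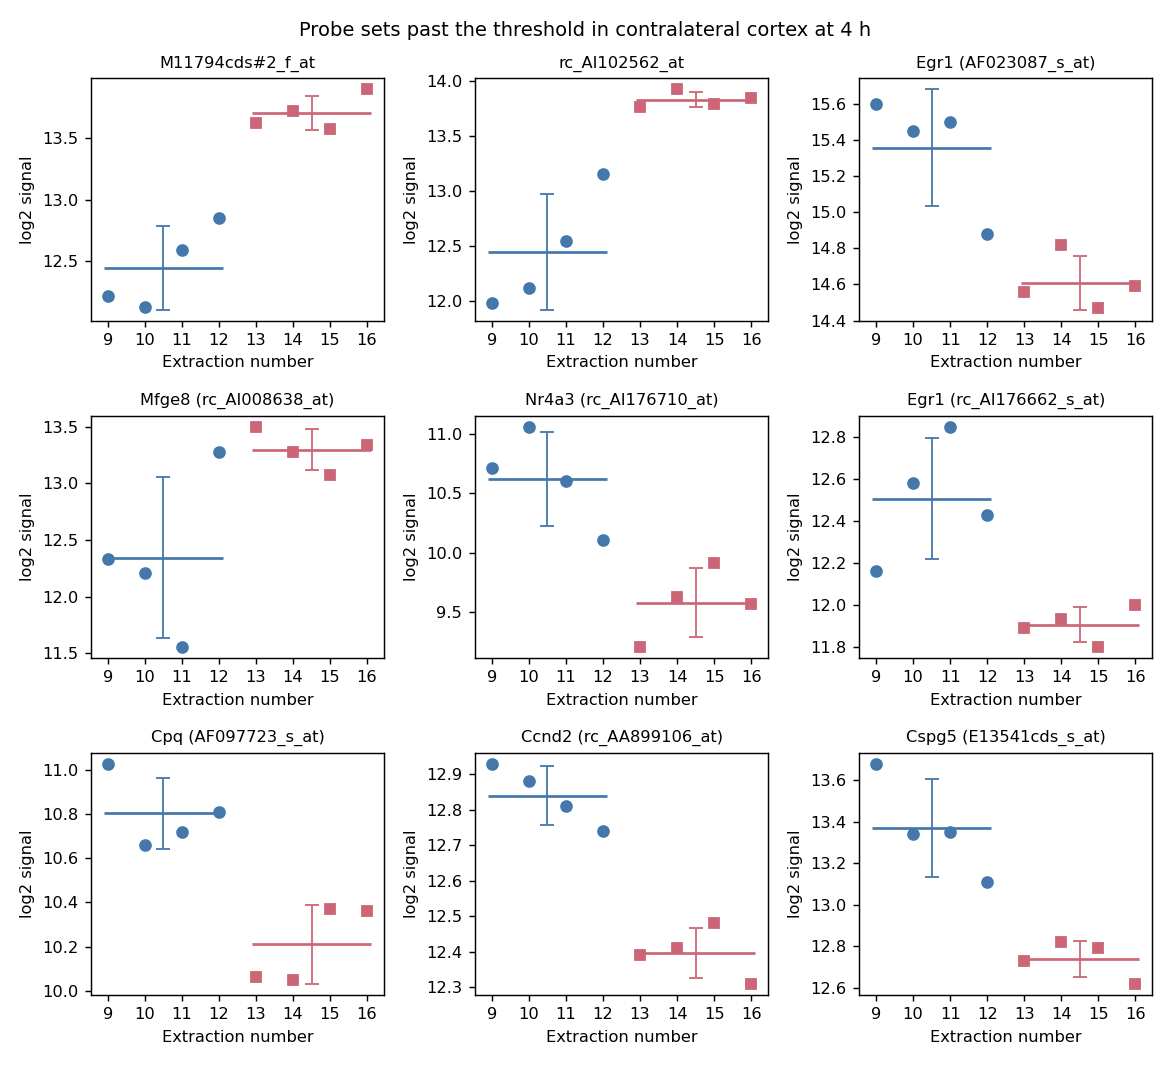
Log2 signal (vertical axis, not starting at 0) of the 9 probe sets with a limma adjusted p under 0.05, by extraction number; circles are numbers 9 to 12, squares 13 to 16, horizontal lines the block means and bars 1 SD (n = 4). The blocks do not overlap in 8 of the 9 panels; in that of Mfge8, array 12 at 13.28 lies within the range of the later block.

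Egr1 encodes a zinc finger transcription factor that neuronal activity and growth factors induce. Its promoter is shown because Egr1 was the gene with most probe sets past the threshold, beside that of Egr2, its relative with the largest difference in the family. The sequences are the 250 bases before the annotated start from RefSeq (GRCr8), Egr1 at chr18:26736828-26737077 on the plus strand and Egr2 at chr20:21054442-21054691 on the minus strand, 5′ to 3′. Capitals mark CArG boxes, which serum response factor binds, and TGACG on either strand, the core of the cyclic AMP response element (CRE) that CREB binds.

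Egr1: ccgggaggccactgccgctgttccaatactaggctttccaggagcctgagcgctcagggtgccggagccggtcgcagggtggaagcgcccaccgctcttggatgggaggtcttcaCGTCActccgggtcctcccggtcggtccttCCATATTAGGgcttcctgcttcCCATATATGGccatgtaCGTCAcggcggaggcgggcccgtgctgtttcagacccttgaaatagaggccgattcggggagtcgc

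Egr2: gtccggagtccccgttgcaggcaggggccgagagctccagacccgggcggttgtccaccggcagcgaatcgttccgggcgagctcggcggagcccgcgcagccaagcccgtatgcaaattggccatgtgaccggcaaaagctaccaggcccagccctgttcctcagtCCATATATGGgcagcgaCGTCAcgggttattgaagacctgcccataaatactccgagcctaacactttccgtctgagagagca

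The Egr1 window holds CArG boxes 105 to 96 and 83 to 74 bases before the start, and CRE cores at 135 to 131 and 66 to 62. The Egr2 window has a CArG box and a CRE core at the same distances, 83 to 74 and 66 to 62. Of 33469 promoter windows in the table, searched over 250 bases on both strands, 501 (1.5%) hold a CArG box and 18.2% the CRE core. Among the immediate early and activity-regulated genes tested, 20 had an entry, with 29 windows in all, since some genes have several. Of the 29 windows 2 (6.9%) hold a CArG box, those of Egr1 and Egr2, and 16 (55.2%) the CRE core. The full CRE, TGACGTCA, which contains the core, stands in 5 (17.2%) against 1.59% of all windows. Windows of 1 gene are not independent of each other. Counted once per gene, 14 of the 20 genes (70%) have the core, 4 (20%) the full CRE and 2 (10%) a CArG box. The shares of all windows are not counted per gene. These matches describe the windows only.

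Egr1 (AF023087_s_at) had log2 signals of 15.60, 15.45, 15.50 and 14.88 on arrays 9 to 12 and of 14.56, 14.82, 14.47 and 14.59 on arrays 13 to 16. Every later array lay below every earlier one, with array 12 the nearest. The means were 15.36 ± 0.33 and 14.61 ± 0.15 (SD, n = 4), a fall of 0.75 (SE 0.14, 1.68-fold, limma adjusted p = 0.0115). A further Egr1 probe set, rc_AI176662_s_at, read 12.16, 12.58, 12.85 and 12.43 in the earlier and 11.89, 11.93, 11.80 and 12 in the later block. It fell by 0.60 (SE 0.13, 1.52-fold, adjusted p = 0.0353), again without overlap. The other Egr1 probe sets, U75398_s_at (−0.56, SE 0.20) and M18416_at (−0.50, SE 0.15), did not pass, so 4 of 4 had lower means and 2 passed. The AF023087_s_at call was lost without array 9, 11 or 13 (adjusted p 0.0886, 0.0563 and 0.0564), and over 19 alternative settings it kept its call in 13, with adjusted p from 0.000264 to 0.452. That of rc_AI176662_s_at held in 8 of 19 and was lost without array 10, 11, 13, 14 or 15 (adjusted p 0.112, 0.167, 0.0909, 0.0667 and 0.112).

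Nr4a3 (rc_AI176710_at), which encodes an orphan nuclear receptor of the activity-induced Nr4a family, read 10.71, 11.06, 10.60 and 10.11 on arrays 9 to 12. On arrays 13 to 16 it read 9.21, 9.63, 9.91 and 9.57. The blocks did not overlap, arrays 12 and 15 lying closest to each other. Nr4a3 fell from 10.62 ± 0.39 to 9.58 ± 0.29 (SD, n = 4), by 1.04 (SE 0.21, 2.05-fold, limma adjusted p = 0.0192). Its second probe set had a difference of −0.43 and did not pass. The call held in 10 of 19 alternative settings and was lost without array 9, 10, 11 or 13 (adjusted p 0.0886, 0.112, 0.0563 and 0.1).

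Of the 34 immediate early and activity-regulated genes listed, 28 were on the array and 27 were tested, each by its brightest probe set. Egr1 and Nr4a3 fell and 0 rose. A value below 0 was found for 19 and above 0 for 8, with a median difference of −0.34 and a range of −1.09 to 0.38. Over all 3887 genes the median was 0.01, with 1862 below 0. At an unadjusted p under 0.05, 10 of the 27 were lower (37%) and 1 higher, where over all genes 112 were lower (2.88%). Over the alternative settings the median of the list lay between −0.49 and −0.16, the latter without array 15. These genes share inducers and the same 8 arrays and are not independent of each other. The mean deviation of the list was 0.24, −0.06, 0.36 and 0.14 on arrays 9 to 12 and −0.14, −0.12, −0.40 and −0.02 on arrays 13 to 16, so arrays 10 and 16 crossed.

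**Figure D3:**
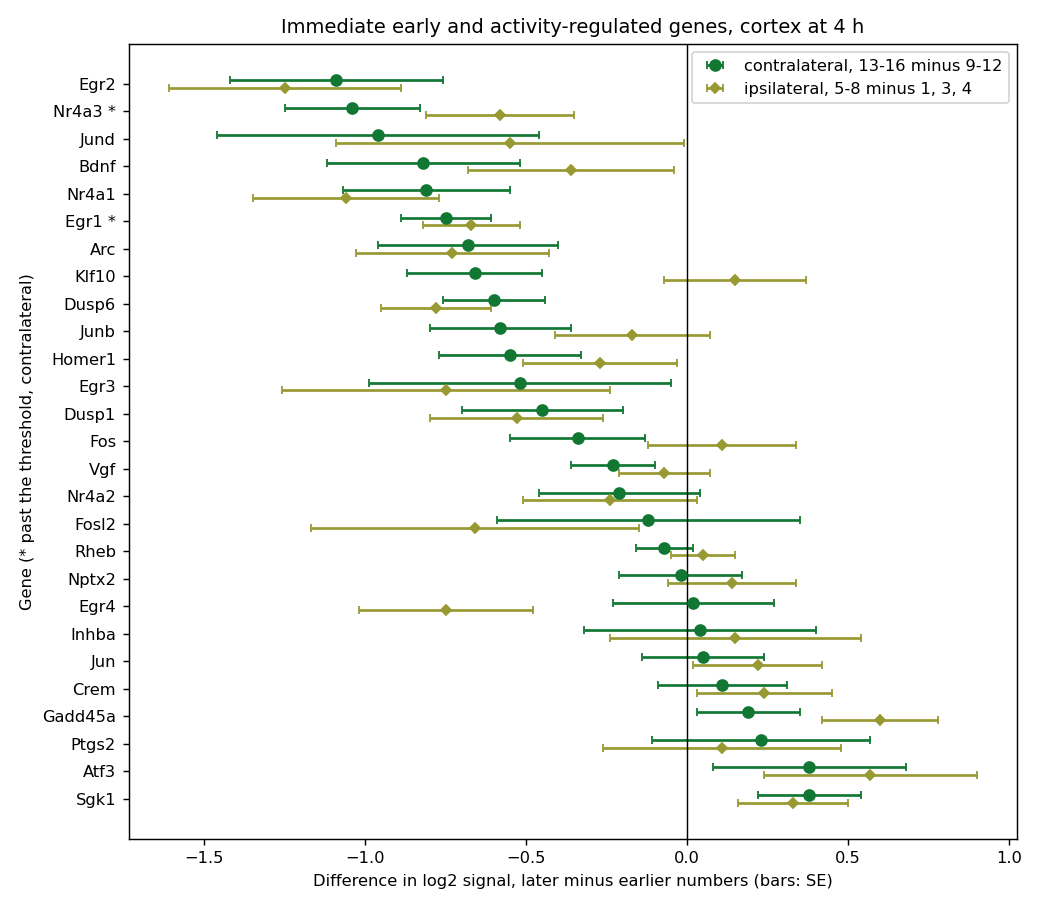
Difference in log2 signal (horizontal axis, bars 1 SE) of the 27 immediate early and activity-regulated genes tested, later minus earlier numbers, in contralateral cortex (circles, 13 to 16 minus 9 to 12) and ipsilateral cortex (diamonds, 5 to 8 minus 1, 3 and 4) at 4 h; an asterisk marks a contralateral limma adjusted p under 0.05. In contralateral cortex 19 genes lie below 0, from Egr2 at −1.09, and 8 above 0, up to 0.38.

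Among transcription factors of the list that did not pass, Egr2 (U78102_at) had the lowest value. It read 10.56, 10.40, 10.78 and 9.67 on the earlier and 9.05, 9.66, 8.60 and 9.76 on the later arrays, with arrays 12 and 16 crossing. The difference was −1.09 (SE 0.33, limma adjusted p = 0.307). Nr4a1, a receptor of the same family as Nr4a3, had values of −0.81 (SE 0.26) and −0.59 (SE 0.25) for its 2 probe sets. Klf10 (rc_AI172476_at), a zinc finger gene that transforming growth factor beta induces, read 11.28, 11.55, 11.23 and 10.88 against 10.57, 10.45, 10.62 and 10.68. Its blocks did not overlap, and the difference of −0.66 (SE 0.21) did not pass either (adjusted p = 0.327). Fos, an AP-1 subunit, had lower means in 3 of 3 probe sets, the brightest at −0.34 (SE 0.21). The AP-1 partner genes Junb and Jund were at −0.58 (SE 0.22) and −0.96 (SE 0.50), the latter with 1 array at the floor, and Jun was at 0.05. Egr3 was at −0.52 (SE 0.47), Egr4 at 0.02, Atf3 at 0.38 (SE 0.30) and Crem at 0.11.

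Effector genes of the list gave a mixed picture. Dusp6 (U42627_at), a phosphatase that switches off ERK, read 12.76, 12.51, 12.01 and 12.23 on the earlier arrays and 11.78, 11.61, 11.69 and 12.04 on the later ones, with arrays 11 and 16 crossing. Its difference was −0.60 (SE 0.16, limma adjusted p = 0.135). Arc, a cytoskeletal protein of active synapses, read 14.21, 12.92, 14.59 and 13.84 against 13.20, 13.94, 12.53 and 13.16. Array 10 was low among the earlier and array 14 high among the later arrays, and the difference of −0.68 (SE 0.28) did not pass. The neurotrophin gene Bdnf had values from −0.82 to 0.41 over its probe sets. The lowest of these rests on array 14 at the floor (10.20, 7.54, 9.58 and 9.92 on the later arrays). Homer1, a scaffold of glutamate receptors, was at −0.55 (SE 0.22, limma adjusted p = 0.605) in its brightest probe set, AB003726_at, with no overlap (13.25, 13.46, 13.42 and 13.23 against 12.4, 13.11, 12.63 and 13.01). Of its 6 probe sets 3 had lower and 3 higher means. The neuropeptide precursor gene Vgf was at −0.23, the synaptic pentraxin Nptx2 at −0.02, and Ptgs2, the inducible cyclooxygenase, at 0.23 (SE 0.34).

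The probe sets with the smallest p lack a single gene name. M11794cds#2_f_at, to which the platform annotation assigns no gene, read 12.21, 12.12, 12.59 and 12.85 on arrays 9 to 12. On arrays 13 to 16 it read 13.63, 13.72, 13.58 and 13.90. The blocks lay well apart, and the signal rose from 12.44 ± 0.34 to 13.71 ± 0.14 (SD, n = 4), by 1.26 (SE 0.21, 2.4-fold, limma adjusted p = 0.00236). rc_AI102562_at, annotated with Mt1f, Ttr and Mt1 and so assigned to none, read 11.98, 12.12, 12.54 and 13.15 against 13.76, 13.92, 13.79 and 13.84. It rose by 1.38 (SE 0.24, 2.6-fold, adjusted p = 0.00236), and the later arrays had an SD of only 0.07 around their mean of 13.83. Both calls held in 17 of 19 alternative settings and with any 1 array left out. They were lost with number blocks elsewhere merged (adjusted p 0.666 and 0.334) and without arrays 9, 13 and 16 (0.149 for both).

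Other probe sets bear on these. rc_AI176456_at, annotated with the metallothionein genes Mt1m and Mt2A, read 13.27, 13.41, 15.04 and 15.05 on arrays 9 to 12 and 15.44, 15.59, 15.37 and 15.33 on arrays 13 to 16. Arrays 9 and 10 were far lower than the other 6, and the difference of 1.24 (SE 0.45) did not pass (limma adjusted p = 0.521). Mt3, the metallothionein typical of brain, was at −0.17 (SE 0.11). Ttr itself (rc_AA945169_at) read 15.60, 10.21, 10.52 and 10.72 against 15.22, 11.34, 10.53 and 13.70, a difference of 0.94 (SE 1.58). Array 9 was thus highest for Ttr and lowest for rc_AI102562_at. Of the choroid plexus and meningeal markers 14 of 14 on the array were tested and 0 passed, with a median of −0.02. Their summed log2 signal ran from 15.52 to 16.71 in the earlier and from 15.52 to 16.35 in the later block.

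Mfge8 (rc_AI008638_at) read 12.33, 12.21, 11.56 and 13.28 on arrays 9 to 12 and 13.5, 13.28, 13.07 and 13.34 on arrays 13 to 16. Array 12 lay among the later arrays and array 11 was the lowest. Mfge8 rose from 12.34 ± 0.71 to 13.30 ± 0.18 (SD, n = 4), by 0.95 (SE 0.19, 1.94-fold, limma adjusted p = 0.0192). The SE uses the pooled spread of the whole fit, and the earlier block alone was more variable than that. The call held in 12 of 19 alternative settings and was lost without array 9, 10, 11 or 13 (adjusted p 0.0886, 0.0691, 0.129 and 0.0909).

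Ccnd2 (rc_AA899106_at), a D-type cyclin that drives entry into the cell cycle, read 12.93, 12.88, 12.81 and 12.74 in the earlier and 12.39, 12.41, 12.48 and 12.31 in the later block. It fell by 0.44 (SE 0.10, 1.36-fold, limma adjusted p = 0.0422), the smallest of the differences that passed, with an SD of 0.08 and 0.07 in the blocks. Its other probe set, D16308_at, was at −0.17 (SE 0.15). The call held in 6 of 19 alternative settings. It was lost without any of arrays 9, 10, 11, 13, 14, 15 and 16 (adjusted p up to 0.153).

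Cspg5 (E13541cds_s_at), which encodes a chondroitin sulfate proteoglycan of neurons and glia, read 13.68, 13.34, 13.35 and 13.11 on arrays 9 to 12 and 12.73, 12.82, 12.79 and 12.62 on arrays 13 to 16. It fell by 0.63 (SE 0.14, 1.55-fold, limma adjusted p = 0.0423) with no overlap. Its brighter probe set, U33553_at, was at −0.36 (SE 0.14) and did not pass, also without overlap (14.68, 14.55, 14.5 and 14.38 against 14.16, 14.34, 14.28 and 13.87). The E13541cds_s_at call held in 5 of 19 alternative settings and was lost without any of arrays 9, 10, 11, 13, 14, 15 and 16 (adjusted p up to 0.238). Cpq (AF097723_s_at), a secreted peptidase gene, read 11.03, 10.66, 10.72 and 10.81 against 10.06, 10.05, 10.37 and 10.36. It fell by 0.60 (SE 0.13, 1.51-fold, adjusted p = 0.0397). That call held in 9 of 19 settings and was lost without array 9, 11, 12, 13 or 14 (adjusted p 0.176, 0.0563, 0.0605, 0.148 and 0.142).

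The next genes by p did not pass. Cebpd (M65149_at), a transcription factor of the acute phase response, read 8.90, 8.27, 9.06 and 8.96 on arrays 9 to 12 and 9.73, 9.95, 10.29 and 10.14 on arrays 13 to 16. Every later array was above every earlier one, and the difference was 1.23 (SE 0.28, 2.34-fold, limma adjusted p = 0.058). Its other probe set, rc_AA946292_at, was at 0.48 (SE 0.34). Mas1, a receptor of the renin-angiotensin system, was at −0.94 (SE 0.22, adjusted p = 0.058). The growth factor gene Fgf18 was at the floor on 4 of 4 earlier arrays and read 8.14, 8.74, 8.99 and 8.78 on the later ones. Its difference was 1.13 (SE 0.26, adjusted p = 0.0632), which the floor makes smaller. Fgf18 met the filter of 4 arrays above the floor only through the later block. Its direction was thus fixed by the filter, and its earlier block has no spread, so its p-value is no support. Hes1, a repressor induced by Notch, was at −1.03 (SE 0.26, adjusted p = 0.121) in D13417_at and at −0.05 in D13417_g_at, so its probe sets disagree.

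Cytokine genes and their signalling genes had 0 of 26 tested past the threshold (38 listed, 36 on the array). A value above 0 was found for 21 and below 0 for 5, with a median of 0.32 against 0.01 for all genes, of which 52.1% were above 0. At an unadjusted p under 0.05, 4 were higher (15.4%, against 3.58% of all genes) and 1 lower (3.85%, against 2.88%). Over the alternative settings the median lay between 0.20 and 0.38, the lowest without array 10, where 18 genes were above 0. The anti-inflammatory cytokine gene Il10 was at 0.77 (SE 0.21), but 3 of the 4 earlier arrays and array 15 were at the floor. Stat3, which relays signals of the interleukin 6 family, was at 0.79 (SE 0.32) in 1 probe set and at 0.03 in another. Lif, a cytokine of that family, was at 1.12 (SE 0.52), the receptor gene Il6r at 0.47 (SE 0.20), the feedback inhibitor Socs3 at 0.71 (SE 0.52) and Cebpb at 0.51 (SE 0.30). Tgfb1 was at −1.01 (SE 0.41), Ccl2 at 0.25 (SE 0.39) and Il1b at −0.13 (SE 0.32). The mean deviation of the list overlapped between blocks, from −0.32 to −0.01 in the earlier and from −0.19 to 0.32 in the later one, with array 15 lowest among the later arrays.

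The list of glucocorticoid-induced genes, which the adrenal stress hormone switches on through its receptor, had 0 of 10 tested past the threshold. It also counts the receptor genes Nr3c1 and Nr3c2 themselves. A value above 0 was found for 7, where 52.1% of all genes were above 0, with a median of 0.34. The median was 0.08 without array 10, with 5 genes above 0, 0.22 without array 15 and 0.19 without array 16. At an unadjusted p under 0.05, where 3.58% of all genes were higher, 3 of the 10 were: the kinase gene Sgk1 (0.38, SE 0.16), Errfi1 (0.43, SE 0.18), an inhibitor of the EGF receptor, and the mineralocorticoid receptor gene Nr3c2 (0.40, SE 0.20). Sgk1 read 10.83, 10.92, 10.65 and 11.13 against 11.20, 11.25, 11.44 and 11.16, a small difference without overlap. The inhibitor of NF-kappaB Nfkbia was at 0.33 (SE 0.20) and the phosphatase gene Dusp1, also an immediate early gene, at −0.45 (SE 0.25). The glucocorticoid receptor gene Nr3c1 was at −0.33 (SE 0.37).

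Stress, matrix and cell cycle genes had 1 call in all, Ccnd2. Heat shock and chaperone genes had 0 of 16 past the threshold and a median of 0.06. At an unadjusted p under 0.05, 4 of the 16 were higher (25%, against 3.58% of all genes) and 0 lower. The small heat shock protein gene Cryab was at 0.56 and 0.59 (SE 0.19 for each) in its 2 probe sets, and X60351cds_s_at read 10.86, 10.31, 10.51 and 10.92 against 11.17, 11.26, 11.32 and 11.24, with no overlap. Metallothionein and oxidative stress genes with a single gene name had 0 of 21 past the threshold and a median of 0.03, the haem oxygenase gene Hmox1 at 0.46 (SE 0.22). Mt3 was the only metallothionein gene among them. The probe sets that name several metallothionein genes, rc_AI102562_at and rc_AI176456_at, are not counted in this list. Extracellular matrix and protease genes had 0 of 27 past it, 20 above 0 and a median of 0.17. That median was 0.09 without array 10 and 0.11 without array 11 or 14. At an unadjusted p under 0.05, 3 of the 27 were higher (11.1%) and 0 lower. Among these were the proteoglycan gene Vcan (0.68, SE 0.24) and the fibronectin gene Fn1 (0.43, SE 0.15). Of 17 cell cycle genes Ccnd2 fell and 0 rose, with a median of 0.02. At an unadjusted p under 0.05, 3 of the 17 were higher (17.6%) and 2 lower (11.8%, against 2.88% of all genes). The cell cycle inhibitor gene Cdkn1b was at 0.73 (SE 0.25), at the floor on all 4 earlier arrays, and Cdkn2b at 0.81 (SE 0.30). Cdkn1b was tested only because the later arrays lay above the floor, so its direction was fixed by the filter.

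Markers of cell types and regions had few calls. Of the 11 astrocyte markers tested 0 passed by their brightest probe set (median 0.05), although Cspg5, 1 of them, passed in its dimmer one. Reactive astrocyte genes had 0 of 16 past the threshold and a median of 0.17. It moved with single arrays, to 0.08, 0.09 and 0.10 without array 10, 11 or 14 and to 0.26 and 0.29 without array 12 or 15. There were 0 calls among 13 microglia and macrophage markers (median 0.03, the complement gene C1qb at 0.33, SE 0.15), 11 oligodendrocyte markers (−0.04), 27 neuronal and synaptic markers (−0.04) and 15 vascular markers (0.02). Erythroid and plasma protein genes (10 tested, median 0.08) and blood leukocyte markers (4 of 17 listed tested, median 0.22) had 0 calls as well. So did markers enriched in hippocampus (9, median 0.02), striatum (11, −0.01) and thalamus (7, 0.01), while of 5 cortex-enriched ones only Egr1 fell. Summed log2 signals of the lists ran from 19.04 to 19.16 in the earlier and from 19 to 19.11 in the later block for neurons, from 15.43 to 15.55 and 15.46 to 15.57 for microglia, and from 11.07 to 11.46 and 10.90 to 12.03 for leukocytes. Their part in the results was not tested.

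**Figure D4:**
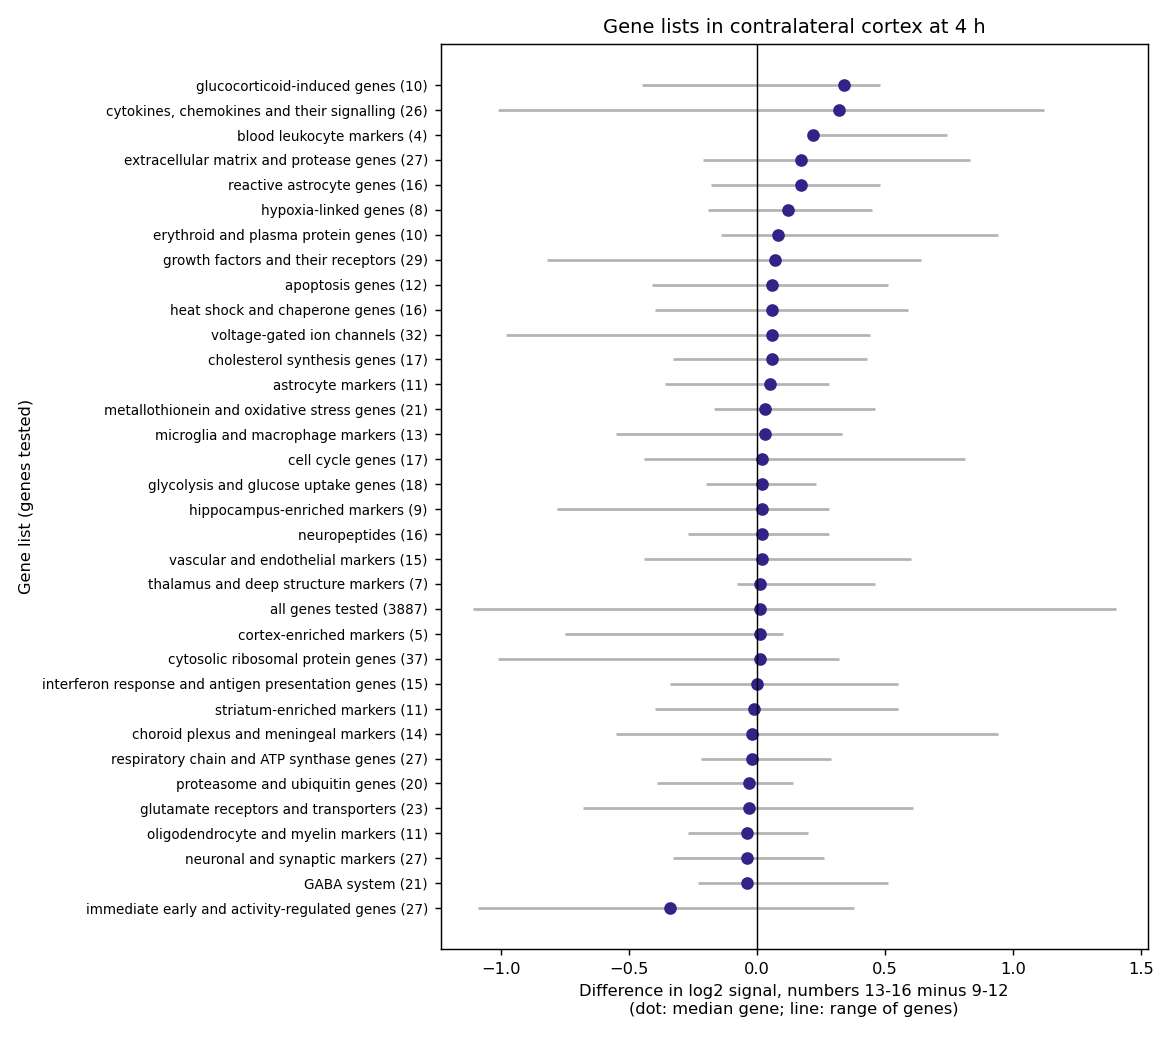
Median difference in log2 signal (dots, numbers 13 to 16 minus 9 to 12) and range over genes (lines) for 33 gene lists and for all genes tested in contralateral cortex at 4 h, with the number of genes tested in brackets. The immediate early genes lie lowest at −0.34, glucocorticoid-induced and cytokine genes highest at 0.34 and 0.32, and all 3887 genes have a median of 0.01.

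Transmission and metabolism lists stayed close to the median of all genes, with 0 calls in each. Medians were −0.03 for 23 glutamate receptor and transporter genes, −0.04 for 21 genes of the GABA system, 0.06 for 32 voltage-gated ion channels and 0.02 for 16 neuropeptides. They were −0.02 for 27 genes of the respiratory chain, 0.01 for 37 cytosolic ribosomal proteins, −0.03 for 20 proteasome and ubiquitin genes, 0.06 for 17 cholesterol synthesis genes and 0.02 for 18 glycolysis genes. Growth factors and their receptors (29 tested, 0.07), apoptosis genes (12, 0.06), hypoxia-linked genes (8, 0.12) and interferon response genes (15, 0.00) also had 0 calls.

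The same split by number on the ipsilateral side asked whether the differences were particular to contralateral cortex. In ipsilateral cortex at 4 h, 45 of the 6680 probe sets passed between numbers 5 to 8 and 1, 3 and 4 (0.674%), 37 higher (0.554%) and 8 lower (0.12%). The comparisons share no arrays, but they share the estimate of spread, and the labels do not tie arrays of the 2 sides to animals. Called on both sides were 4 probe sets, M11794cds#2_f_at, rc_AI102562_at and both Egr1 ones, which are 44.4% of the contralateral and 8.89% of the ipsilateral calls. Of the 9 contralateral calls 7 had the same sign on the ipsilateral side, and 7 had an unadjusted p under 0.05 there (9.82% of all probe sets had), 1 of which, Cpq, went the opposite way. Across all 6680 probe sets the differences of the 2 sides had a Pearson's r of 0.11, and 52.9% were of the same sign.

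M11794cds#2_f_at read 11.89, 13 and 12.88 on ipsilateral arrays 1, 3 and 4 and 14.32, 14.48, 13.94 and 14.34 on arrays 5 to 8, a rise of 1.68 (SE 0.23, limma adjusted p = 2.5e-05). The contralateral rise of 1.26 differed from it by −0.42 (SE 0.31, adjusted p = 0.842). For rc_AI102562_at the ipsilateral rise was 1.07 (SE 0.25, adjusted p = 0.0298), and the difference between sides was 0.31 (SE 0.35). Egr1 (AF023087_s_at) read 15.45, 15.22 and 15.21 against 14.57, 14.89, 14.52 and 14.5, a fall of 0.67 (SE 0.15, adjusted p = 0.025), which differed from the contralateral one by −0.08 (SE 0.21, adjusted p = 0.973). All later ipsilateral arrays lay below the earlier ones. Nr4a3 was at −0.58 (SE 0.23, adjusted p = 0.335), Cspg5 at −0.58 (SE 0.15, adjusted p = 0.0569) and Cebpd rose by 1.54 (SE 0.31, adjusted p = 0.00634) on the ipsilateral side. The median of the immediate early list was −0.24 there, with 0 genes past the threshold higher and 2 lower, Egr1 and Dusp6 (−0.78, adjusted p = 0.0197).

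The remaining calls had unlike values on the 2 sides, but the difference between sides did not pass for any of them. Cpq read 10.48, 10.5 and 10.5 on arrays 1, 3 and 4 and 10.88, 10.78, 10.88 and 10.68 on arrays 5 to 8, a value of 0.32 (SE 0.14) where it fell by 0.60 on the contralateral side. The sides differed by −0.91 (SE 0.19, unadjusted p = 2.37e-05), which did not pass over all probe sets (limma adjusted p = 0.159). Mfge8 was at −0.29 (SE 0.21) on the ipsilateral side, a difference between sides of 1.24 (SE 0.28, adjusted p = 0.221), and Ccnd2 at −0.08 (SE 0.11). Of the 45 ipsilateral calls 38 (84.4%) had the same sign on the contralateral side, against 52.9% of all probe sets. Their contralateral values varied widely. Beside the 4 shared calls, Cebpd (M65149_at) was at 1.23, Vcan at 0.68 and Dusp6 (U42627_at) at −0.60 there, none past the threshold. Other values were smaller. The protease inhibitor gene Timp1 (rc_AI169327_g_at) rose by 2.59 ipsilaterally and was at 0.22 contralaterally, and the acute phase gene Lcn2 was at 2 and 0.48, Ccl2 at 2.01 and 0.25 and Hmox1 at 1.53 and 0.46. Galectin gene Lgals3 (1.56 and 0.06) and the haemoglobin gene Hbb (0.87 and 0.01) were near 0 contralaterally. In the test of the difference between sides 0 of 6680 probe sets passed in limma (0%), with 445 at an unadjusted p under 0.05 (6.66%), Timp1 at an adjusted p of 0.312. With no filter on dim probe sets 9 passed in this test, and with a filter on at least 7 of 47 arrays 4 did. At the filter used here, no single gene was shown to differ between sides.

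**Figure D5:**
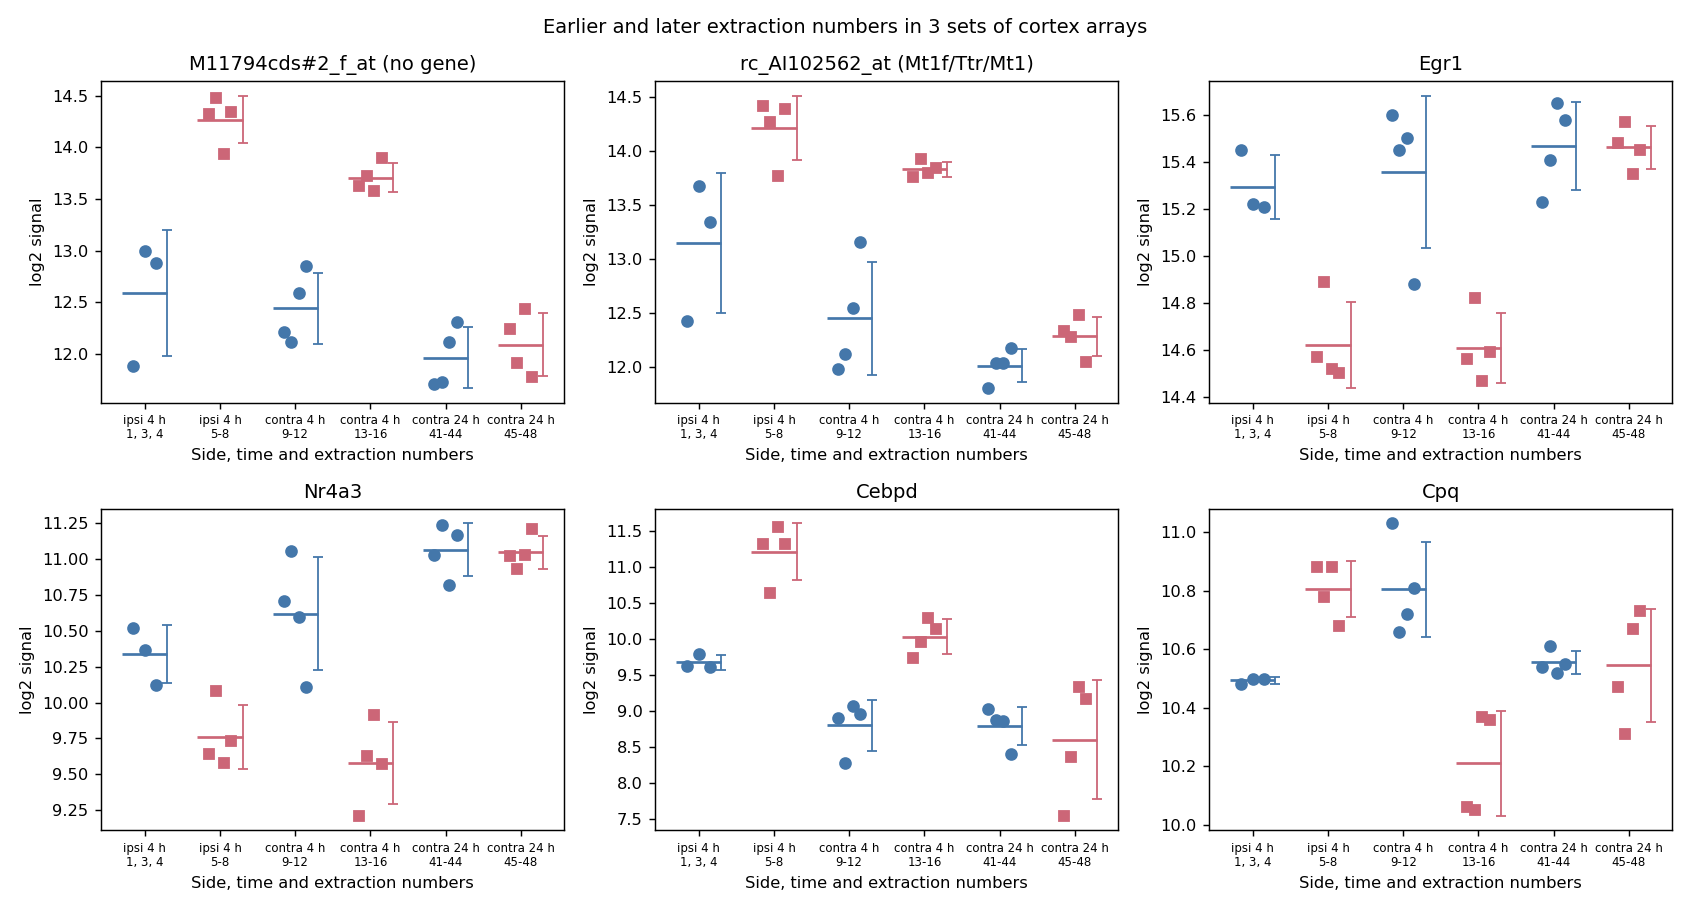
Log2 signal (vertical axis, not starting at 0) of 6 probe sets in ipsilateral cortex at 4 h, contralateral cortex at 4 h and contralateral cortex at 24 h; circles are the earlier and squares the later extraction numbers, lines the means and bars 1 SD (n = 3 or 4). M11794cds#2_f_at, rc_AI102562_at and Egr1 differ the same way on both sides at 4 h and have overlapping blocks at 24 h, while Cpq is lower in the later numbers only in contralateral cortex at 4 h, a difference between sides that did not pass.

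In contralateral cortex at 24 h, numbers 45 to 48 against 41 to 44 gave 0 of 6680 probe sets in limma (0%), with 204 at an unadjusted p under 0.05 (3.05%). Of the 9 probe sets called at 4 h, 0 had an unadjusted p under 0.05 at 24 h. M11794cds#2_f_at averaged 11.97 ± 0.30 and 12.09 ± 0.30 (SD, n = 4) in the 2 blocks at 24 h, both below its means at 4 h. Egr1 (AF023087_s_at) averaged 15.47 ± 0.19 and 15.46 ± 0.09, close to the earlier block at 4 h. Nr4a3 averaged 11.07 ± 0.18 and 11.05 ± 0.12 and Cebpd 8.78 ± 0.27 and 8.60 ± 0.83. The difference at 4 h exceeded that at 24 h by 1.14 (SE 0.30, unadjusted p = 0.000399) for M11794cds#2_f_at and by −0.75 (SE 0.20, unadjusted p = 0.000665) for Egr1. Neither passed: 0 of 6680 probe sets did in this test (0%, limma), with 266 at an unadjusted p under 0.05 (3.98%). The median of the immediate early list was −0.01 at 24 h.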

How the data were processed

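Arrays were grouped by the side, region, hours and extraction number in the labels. Each array's deposited column holds linear signals, 1 intensity per probe set. How probes were summarised and scaled is not given in the sources used here. Trimmed means (2%) of the arrays lay between 2503 and 2504, so the values were kept as deposited by the authors, raised to a floor (their 25th percentile) and put on a log2 scale. A fold against arrays at the floor is therefore understated.

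One linear model of 13 group means (number blocks, and array 23 alone) was fitted per probe set over all 47 arrays with limma 3.58.1 in R 4.3.3 (data.table package 1.17.8), eBayes with trend, two-sided, with Benjamini-Hochberg adjustment over 6680 probe sets per comparison and a threshold of 0.05. The 59 control probe sets were left out. The procedure was run on simulated data with noise independent between probe sets. Effects shared by all probe sets of an array were not simulated, so that run cannot speak to them. Differences between the sides and between the times were contrasts of 2 differences in the same fit.

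Symbols came from the platform annotation, updated through gene ID (6994 of 7018 single-gene probe sets matched); 308 probe sets name several genes and 1473 none. Lists count a gene once, represented by the probe set brightest on average on the 8 arrays. Named genes were the 12 largest rises and 12 largest falls past the threshold, or all where fewer passed, and up to 3 list members past it; other list members appear with values only. The probe sets without a single gene name, and genes close to the threshold, were named after their values were seen. The comparison, lists and tests were chosen with earlier results of these data known. Promoters came from RefSeq (GRCr8). The alternatives concerned the arrays in the fit, normalization, floor, filter, weights, a covariate and arrays left out.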

Additional observations from a re-analysis of the deposited data

Results flagged for a closer look

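In 86 groups of 4 values examined, log2 signals of probe sets and array quality measures, 3 held a value far from the other 3. Chance alone marks about 1 in 20 groups. Ttr (rc_AA945169_at) was 15.60 on array 9, while arrays 10, 11 and 12 lay between 10.21 and 10.72. The synaptic pentraxin gene Nptx2 (S82649_s_at) was 12.34 on array 9 against 12.60 to 12.65 on arrays 10 to 12. Atf3 (M63282_at), a stress-induced transcription factor gene, was 8.86 on array 15 against 9.42 to 9.53 on arrays 13, 14 and 16.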

How the results depend on the processing

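Against the 9 probe sets that passed, the count was 2 with the 8 arrays alone, 0 with number blocks elsewhere merged and 4 with array weights. Leaving out 1 array gave 2 to 13 (3 without array 9, 2 without 11 or 13). Not all of these calls were among the 9: without array 10 it was 4 of 8, and without array 12 it was 8 of 13. Quantile normalization gave 6, a floor at the 10th percentile 10, log2(signal + 100) 9, no filter 9, a filter on at least 7 of 47 arrays 9, and adding each array's 10th percentile as a covariate 11. Arrays 12, 13 and 14, or 9, 13 and 16, were left out as alternatives chosen after seeing the data, and gave 12 and 0. None of these 9 probe sets reversed its sign under any of the 19 settings; other named probe sets were not followed. The difference between sides, with 0 calls, had 9 without the filter, 4 with the filter on 7 of 47 arrays, 0 to 2 on leaving out 1 array (2 without array 12), 2 without arrays 12, 13 and 14 and 1 without arrays 9, 13 and 16. Both filters add dim probe sets that lie at the floor on most of the 8 arrays. The difference between times had 0 to 1 on leaving out 1 array (1 without array 12) and 1 without arrays 12, 13 and 14. Whether the calls gained under these filters are such probe sets was not followed, and the cause of the changes under any setting was not tested. No paired analysis was possible because the labels do not tie arrays of different groups to animals. Dim probe sets near the floor limit what can be measured.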

Other observations

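Some further genes had blocks that did not overlap, or barely did, in at least 1 probe set, and did not pass. They were chosen after their values were seen. Eif2ak3, the stress kinase PERK of the endoplasmic reticulum, had values of 0.97 (SE 0.29) and 0.77 (SE 0.23) in its 2 probe sets. AF096835_at read 8.57, 8.64, 8.04 and 9.12 on arrays 9 to 12 and 9.58, 9.72, 9.28 and 9.65 on arrays 13 to 16. COX1, the mitochondrially encoded subunit of cytochrome oxidase, had values of 0.35 (SE 0.09) and 0.41 (SE 0.12) in its 2 probe sets. In rc_AA850885_s_at arrays 12 and 13 were nearly level, at 16.45 and 16.43. The muscarinic receptor genes Chrm1 (M16406cds_s_at) and Chrm3 (M16407_at) were at −0.56 (SE 0.16) and −0.37 (SE 0.11), and their other probe sets at −0.33 and −0.06. Chrm1 read 11.14, 11.23, 11.31 and 10.96 against 10.56, 10.65, 10.40 and 10.80. Klf9 (D12769_g_at), a transcription factor gene that glucocorticoids and thyroid hormone induce, read 13.77, 13.92, 14.25 and 14.22 against 14.45, 14.33, 14.40 and 14.40, a difference of 0.35 (SE 0.11). The Notch receptor gene Notch2 was at 1.09 (SE 0.34), at the floor on 3 of 4 earlier arrays, and Hes5, a Notch target, was at −0.55 (SE 0.23) and −0.86 (SE 0.49) in its 2 probe sets.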
